A study of Mus musculus with 8 samples.

Results

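The cytoplasmic ribosomal protein genes, which encode the protein part of the ribosome that translates messenger RNA, were examined in ATAC-seq peak lists from mouse mammary tumor cells. Members were the protein-coding genes of the GENCODE M21 annotation named Rpl or Rps followed by a number, with Rplp0, Rplp1, Rplp2 and Rpsa and without the Rps6k kinases. This gave 86 genes of 21755 protein-coding genes on the 20 chromosomes that the lists cover. Of the 86 genes, 46 encode proteins of the large subunit and 31 of the small subunit. The other 9 are 8 paralogs (Rpl3l, Rpl7l1, Rpl10l, Rpl22l1, Rpl36al, Rpl39l, Rps27l and Rps27rt) and Rps19bp1, which encodes a protein that binds Rps19 and is no part of the ribosome. The name rule leaves out Fau, whose ribosomal protein is made as a ubiquitin-like fusion, and Rack1, a protein bound to the small subunit.

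Each ribosome holds 1 copy of nearly all of these proteins, so their genes are transcribed at high and balanced rates in every growing cell, and surplus protein is degraded. Most of their promoters are rich in CpG, and transcription starts within a run of pyrimidines that also lets nutrient signaling control the translation of the messenger RNA (the TOP element). Several proteins act beyond the ribosome: Rpl5 and Rpl11 bind Mdm2 and stabilize p53 when ribosome assembly fails, and Rps6 is phosphorylated downstream of mTOR. Because cells of all types use these genes, their open promoters serve here as a reference for how completely each library detects accessible promoters.

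The cells were lines derived from mammary tumors of FBV/N mice (as the labels spell the strain) that carry the polyomavirus middle T oncogene (PyMT), either WT or Lats1-CKO, in which the Hippo pathway kinase gene Lats1 was deleted in the epithelial compartment. They were sorted into a luminal population (EpCAM-high; CD49f-high) and a basal-like one (EpCAM-low; CD49f-high). Per the paper, the sorted cells were then expanded briefly in culture before ATAC-seq. Each group has 2 libraries. The WT ones are BM1 and BM5 for luminal cells and BM2 and BM6 for basal-like cells, and the Lats1-CKO ones are BM3 and BM7 for luminal cells and BM4 and BM8 for basal-like cells. The study calls them biological replicates, but the labels do not say whether the cells came from separate cultures or tumors, so p-values may measure only the spread between these libraries.

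BM3 stood apart, with 14753 peaks against 51497 to 99022 in the other 7 libraries. The lists give no read counts, so depth per library is unknown and no counting interval can be given. The study's methods say that 1 Lats1-CKO luminal replicate was set aside for quality, without naming it, and results that rest on BM3 are given with and without it. Of 3 luminal genes, Krt8 had a peak near a start site in all 8 libraries. Epcam and Krt18 had none in either Lats1-CKO basal-like library but one in both WT basal-like libraries, and Krt18 also had none in the luminal BM3. Of 3 basal genes, Krt14 had a peak in all 8 libraries, while Trp63 and Krt5 had none in 8 and 7 libraries, respectively. Lats1 had a peak in 7 libraries, all but BM3. A peak at its promoter does not check its deletion. Of 5 fibroblast genes, 5 had a peak in BM4, 4 in BM2, 3 in BM6 and BM8, 2 in BM1 and BM7, 1 in BM5 and 0 in BM3. Of 3 immune genes, 2 had a peak in BM8, 0 in BM3 and 1 in each other library. Of 2 endothelial genes, 1 had a peak in each of BM2, BM4, BM7 and BM8 and 0 elsewhere. Whether such cells bear on the values below was not tested.

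Almost all members had accessible promoters outside BM3 and BM5. A gene was counted when a peak lay within 1 kb of any of its annotated transcription start sites (TSS). By this count 80 of 86 members (93.0%) had a peak in each of BM1, BM4, BM7 and BM8, 78 (90.7%) in BM2 and 77 (89.5%) in BM6. The share was 79.1% in BM5 and 55.8% in BM3. BM3 and BM5 were thus the lowest libraries, and both are luminal, 1 of each genotype. Over all protein-coding genes the share was 50.9 to 59.3% outside BM3 and 34.6% in BM3. The 78 genes of mitochondrial ribosomal proteins (Mrpl and Mrps), another housekeeping list, ran from 88.5% in BM5 to 98.7% in BM8, with 53.8% in BM3. The 295 named ribosomal protein pseudogenes, mostly intronless copies without the parent's promoter, had a peak in 0.678% (BM3) to 6.78% (BM8).

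**Figure D1:**
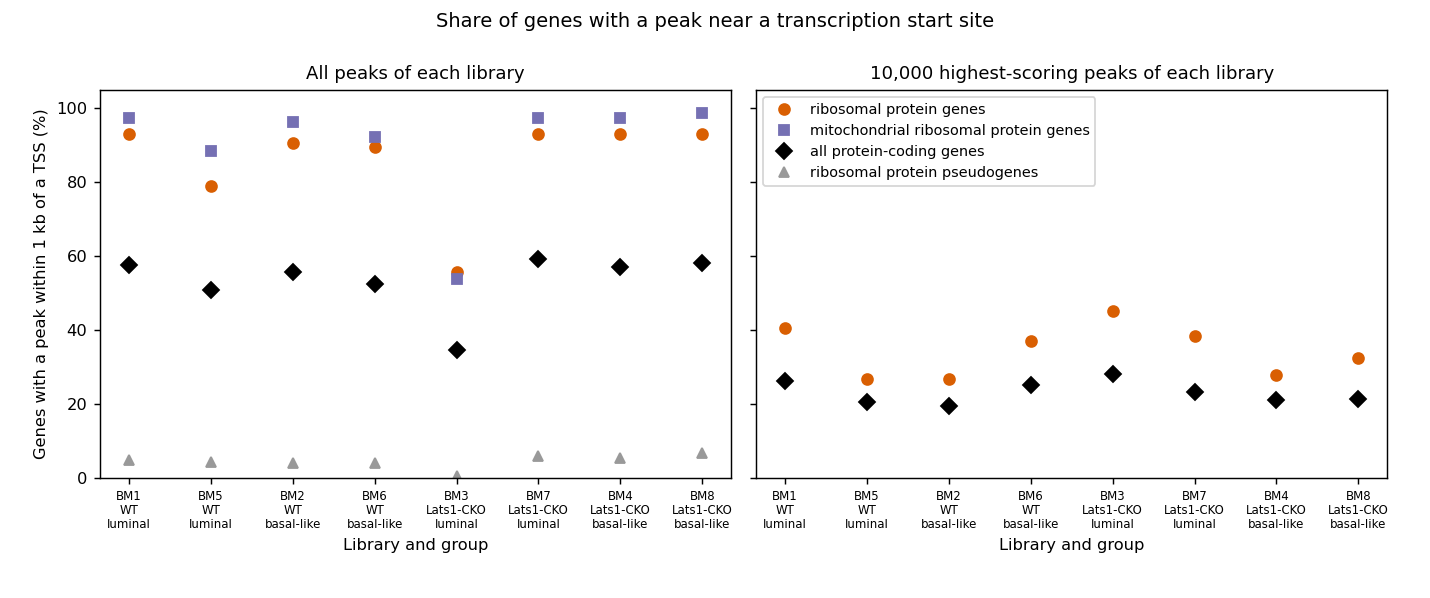
Share of genes (y axis, percent) that have a peak at most 1 kb from a start site in each library (x axis, ordered by group), for ribosomal protein genes, mitochondrial ribosomal protein genes, all protein-coding genes and ribosomal protein pseudogenes. With all peaks (left), ribosomal protein genes lie near 90% in all libraries but BM5 (79.1%) and BM3 (55.8%). When only the 10000 highest-scoring peaks of a library count (right; ribosomal protein and all protein-coding genes only), BM3 has the highest share of ribosomal protein genes, 45.3%.

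Members have more annotated start sites than other genes, with a median of 6 against 3, and each start site adds a window in which a peak can fall. Among genes with at least 6 start sites, the share was 86.7 to 97.8% for the 45 members and 78.1 to 87.9% for the 5918 other genes outside BM3. In BM3 it was 66.7% against 56.6%. With only 1 representative start site per gene, members ran from 76.7% to 93.0% outside BM3 and other genes from 45.3% to 53.8%.

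By group, the share was 86.0% ± 9.87 (SD, n = 2) in WT luminal, 90.1% ± 0.822 (SD, n = 2) in WT basal-like, 74.4% ± 26.3 (SD, n = 2) in Lats1-CKO luminal and 93.0% ± 0 (SD, n = 2) in Lats1-CKO basal-like libraries. The Lats1-CKO mean differed from the WT mean by -4.36 percentage points with all 8 libraries and by 4.94 without BM3. The basal-like mean exceeded the luminal mean by 11.3 points, and by 3.20 without BM3. Over all protein-coding genes the mean share was 54.3% in WT and 52.3% in Lats1-CKO libraries (58.3% without BM3). It was 50.6% in luminal and 56.0% in basal-like libraries. With all 8 libraries, all genes thus shifted in the same directions as the members, and for genotype they also did so without BM3. For population they did not. Without BM3 the mean share of all genes over the remaining libraries was 56.0%, the same as the basal-like mean. The pooled SD of single libraries within groups was 14.1 points. It includes BM3, rests mostly on the Lats1-CKO luminal SD of 26.3, and is no standard error of the members' differences.

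The members found in BM3 were mostly those with strong peaks elsewhere. Of the 67 members with a peak in all the other 7 libraries, 45 (67.2%) also had one in BM3, against 73.5% of 9628 protein-coding genes and 61.5% of 65 mitochondrial ribosomal protein genes. The strength of a peak was taken as its score percentile, the rank of its score among all peaks of its library (100 is the highest). Over the other 7 libraries, the mean percentile of the 45 members found in BM3 had a median of 87.4, and that of the 22 members not found there had a median of 69.6. When each library was cut to its 10000 highest-scoring peaks, the share of members with a peak was 26.7 to 40.7% outside BM3 and 45.3% in BM3, and over all genes 19.7 to 26.2% and 28.1%.

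Rps26, a small subunit protein gene, was singled out after its values were seen because it broke this pattern. Its percentile was 96.6 in BM1, 93.4 in BM2, 97.1 in BM4, 98.5 in BM5, 97.3 in BM6, 96.6 in BM7 and 98.0 in BM8, and it had no peak in BM3. In those 7 libraries its peak, 166 to 220 bp wide, ended short of every annotated start site, with its center at -102.5 to -122.5 bp from the nearest one (negative is upstream). In the other direction, Rps10 had a percentile of 94.3 in BM3 against 57.0 to 81.5 elsewhere, and Rps24 had 92.4 against 56.8 to 88.2.

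**Figure D2:**
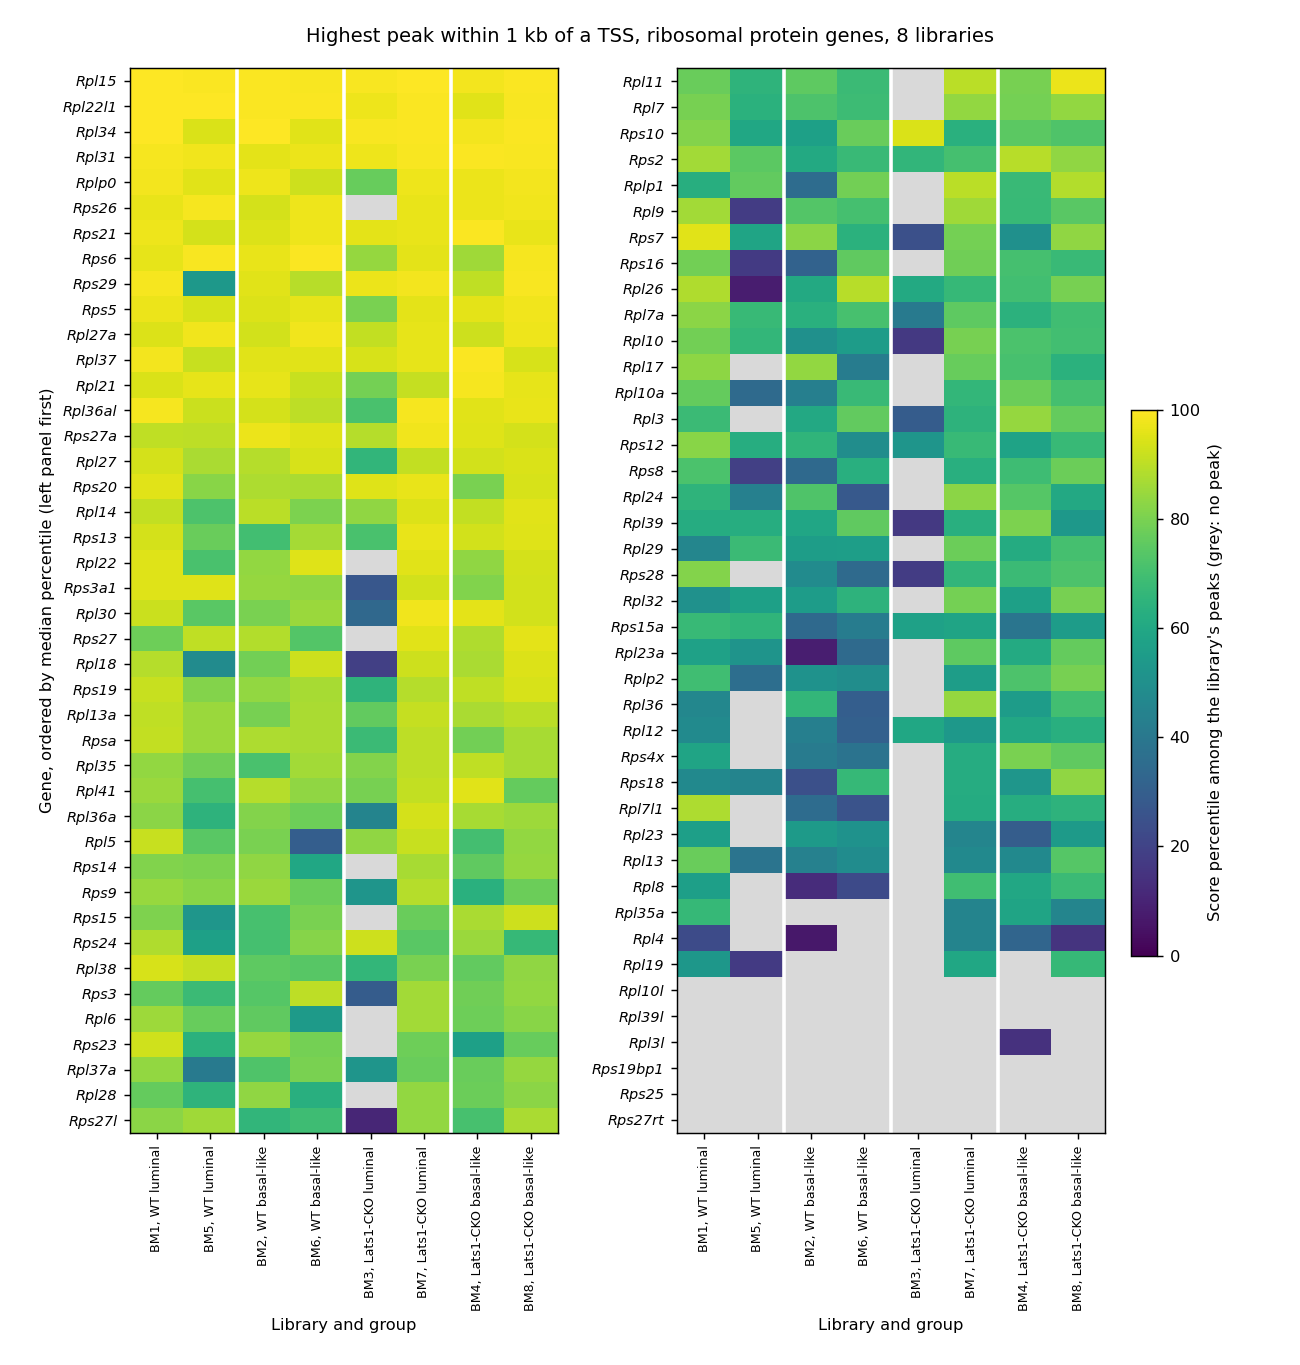
Score percentile (color) of the highest peak within 1 kb of a TSS for the genes reported here (rows, ordered by their median over libraries, left panel first) in the 8 libraries (columns, ordered by group). Grey marks genes without a peak. Grey cells are most frequent in BM3, and 5 genes are grey in all 8 libraries.

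When a peak was present, its rank resembled that of other genes. The members' median percentile was 84.2 in BM1, 75.3 in BM2, 71.4 in BM3, 78.5 in BM4, 73.2 in BM5, 77.5 in BM6, 85.1 in BM7 and 83.6 in BM8. For all protein-coding genes with a peak it was 84.1, 77.2, 65.7, 82.1, 77.2, 79.4, 84.4 and 83.9 in the same order. Members were therefore above all genes in BM1, BM3 and BM7 and below them in the other 5 libraries. The group means were 78.7 ± 7.74 (SD, n = 2) for WT luminal, 76.4 ± 1.59 (SD, n = 2) for WT basal-like, 78.2 ± 9.64 (SD, n = 2) for Lats1-CKO luminal and 81.1 ± 3.62 (SD, n = 2) for Lats1-CKO basal-like libraries. The Lats1-CKO mean exceeded the WT mean by 2.11 percentile points and the basal-like mean the luminal mean by 0.261. The pooled SD of single libraries within groups, with BM3, was 6.49, which is no standard error of these differences. Without BM3 these differences were 4.85 and -2.09. For all protein-coding genes the mean median was 79.5 in WT and 79.0 in Lats1-CKO libraries (83.5 without BM3). It was 77.8 in luminal and 80.7 in basal-like libraries.

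Small subunit genes had a higher median than large subunit genes in 7 libraries (87.2 against 82.7 in BM1, for example) and a lower one in BM3 (69.8 against 75.8). Of the 77 members other than the paralogs and Rps19bp1, 30 hold snoRNA genes in their introns, which encode guides for the modification of ribosomal RNA. Their median percentile had a median of 71.0, against 78.0 for the 47 without. The 18 members with a start site of another gene within 1 kb had 72.3, against 77.4 for the other 59.

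The order of the members was alike in all libraries. Spearman's rho over the members with a peak in both libraries (45 to 80 members) ran from 0.477 to 0.879 over the 28 pairs of libraries, with a median of 0.763, and from 0.477 to 0.671 in the 7 pairs with BM3. For other protein-coding genes the range was 0.534 to 0.863. Genes are not independent replicates, and libraries share the promoters' sequence and mappability, so these values are a description.

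Peaks were found in all 8 libraries for 45 of 86 members (52.3%), against 32.5% of all protein-coding genes and 51.3% of the mitochondrial list. Of these 45, 30 were above the 50th percentile in every library and 8 (17.8%) above the 90th, against 62.9% and 11.8% of all genes with a peak in all libraries. They included Rpl15, Rpl22l1, Rpl27a, Rpl31, Rpl34, Rpl37 and Rps21.

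Rpl15, a core protein of the large subunit, had the steadiest high peak, with percentiles of 99.8 in BM1, 99.5 in BM2, 98.9 in BM3, 98.2 in BM4, 99.5 in BM5, 99.0 in BM6, 99.6 in BM7 and 99.4 in BM8. Its start sites lie within 1 kb of one of Nkiras1, so that the peak may belong to either gene. Rpl31, a surface protein near the exit of the peptide tunnel, ran from 96.1 to 99.4. Rpl22l1, a paralog of Rpl22, ran from 95.4 in BM4 to 99.8 in BM5. Rpl34 ran from 94.3 to 99.7 and Rps21 from 93.5 to 99.2. The first 3 promoters are shown from 120 bases before to 15 bases after the representative start site, on the gene's strand of GRCm38.p6 (the C57BL/6J reference, not the strain of these cells). Capitals mark matches to the ETS core CCGGAAG, which ETS-family factors bind, and to the GC box GGGCGG of Sp1-like factors, or to its reverse complement CCGCCC.

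Rpl15 (chr14:18271053-18271187, minus strand): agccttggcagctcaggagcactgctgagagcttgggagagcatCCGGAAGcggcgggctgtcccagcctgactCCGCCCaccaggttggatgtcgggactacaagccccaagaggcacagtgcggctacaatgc

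Rpl31 (chr1:39367722-39367856, plus strand): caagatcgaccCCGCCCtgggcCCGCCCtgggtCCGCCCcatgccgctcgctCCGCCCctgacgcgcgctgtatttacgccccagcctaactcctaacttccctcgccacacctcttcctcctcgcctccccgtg

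Rpl22l1 (chr3:28805316-28805450, plus strand): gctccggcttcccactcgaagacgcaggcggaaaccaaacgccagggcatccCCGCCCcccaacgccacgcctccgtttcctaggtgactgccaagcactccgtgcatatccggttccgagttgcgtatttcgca

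The Rpl15 stretch has 1 ETS and 1 GC box match, Rpl31 has 4 GC box matches and Rpl22l1 has 1. Of the 5 lowest of the 45 genes by their smallest percentile, that value came from BM3 in 4 cases and from BM5 in 1. Rps27l, a p53-induced paralog of Rps27, had 10.6 in BM3 and 65.7 to 87.2 elsewhere. Rpl10, a large subunit protein at the peptidyl transferase center, had 16.8 in BM3 and 50.4 to 79.4 elsewhere. Rpl39 had 16.8 in BM3 and 53.2 to 80.5 elsewhere, and Rpl18 had 19.0 in BM3 and 48.2 to 94.7 elsewhere. Rpl26 had 8.20 in BM5 and 60.6 to 89.2 elsewhere.

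The proteins with known extra roles did not form a class. Rps6 had percentiles of 84.1 to 99.4 and Rps27a, a ubiquitin fusion, 89.1 to 97.7, in all 8 libraries. Rplp0, the base of the ribosomal stalk, had 76.9 in BM3 and 92.3 to 98.4 elsewhere. Its stalk partners Rplp1 (35.5 to 89.8) and Rplp2 (36.1 to 79.6) had peaks in 7 libraries, all but BM3. Rpl5 had peaks in all 8 libraries (30.0 to 91.5), while its p53 pathway partner Rpl11 had none in BM3 and 65.1 to 97.2 elsewhere. Rps19, mutated in Diamond-Blackfan anemia, had 65.0 to 94.0 and Rpsa, also known as the laminin receptor, 68.2 to 90.9. Of the genes outside the name rule, Fau (20.4 to 79.7) and Rack1 (59.7 to 89.0) had peaks in 8 libraries.

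No peak was found near 5 members in any library: Rps25, Rps27rt, Rpl10l, Rpl39l and Rps19bp1. Rpl10l and Rpl39l are paralogs expressed mainly in the testis, and Rpl3l, a paralog of striated muscle, had a peak only in BM4, at percentile 14.2. In contrast, the paralogs Rpl22l1, Rpl36al and Rps27l had peaks in all 8 libraries and Rpl7l1 in 6.

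Rps25, a small subunit protein used in internal ribosome entry, was the only member outside the paralogs and Rps19bp1 without a peak in any library. It lies on chromosome 9, from 44407139 to 44410427 on the plus strand. The nearest peak was 9943 to 72208 bp from its start sites, with a median of 9949 bp over the libraries. Trappc4, which starts 33 bp away in the opposite direction, had none either, nor had Slc37a4 and Hyou1 further along. Ccdc84, which has a start site 3219 bp away, had a peak near one of its start sites in 7 libraries. The authors kept only uniquely aligned reads and removed peaks in blacklisted regions of the genome. Whether either bears on Rps25 was not tested.

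The other members with few peaks were Rpl19 and Rpl35a, in 4 libraries each, and Rpl4, in 5. Rpl19, a large subunit protein, had percentiles of 52.9 in BM1, 16.8 in BM5, 59.4 in BM7 and 67.2 in BM8. These libraries are the 2 WT luminal ones and 1 of each Lats1-CKO population. Rpl35a, mutated in some cases of Diamond-Blackfan anemia, had 67.0 in BM1, 58.5 in BM4, 45.3 in BM7 and 45.6 in BM8. Rpl4 had 22.8 in BM1, 6.30 in BM2, 32.7 in BM4, 45.3 in BM7 and 15.1 in BM8. None of these peaks covered a start site, though in BM7 a weaker one, at percentile 37.8, did. Zwilch has a start site within 1 kb of one of Rpl4, and Iqcg within 1 kb of one of Rpl35a. The peaks may thus belong to either gene of each pair. Rpl8, Rpl17, Rpl23, Rpl36, Rpl7l1 and Rps4x had peaks in 6 libraries, and each lacked one in BM3 and BM5. The promoters of the 3 core members with the fewest peaks are shown with the same marks.

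Rps25 (chr9:44407019-44407153, plus strand): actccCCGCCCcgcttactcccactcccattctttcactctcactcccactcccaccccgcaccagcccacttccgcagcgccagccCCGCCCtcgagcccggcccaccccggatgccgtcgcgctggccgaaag

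Rpl19 (chr11:98026804-98026938, plus strand): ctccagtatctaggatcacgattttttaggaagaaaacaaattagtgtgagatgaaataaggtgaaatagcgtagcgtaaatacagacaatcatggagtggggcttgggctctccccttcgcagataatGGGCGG

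Rpl35a (chr16:33056333-33056467, plus strand): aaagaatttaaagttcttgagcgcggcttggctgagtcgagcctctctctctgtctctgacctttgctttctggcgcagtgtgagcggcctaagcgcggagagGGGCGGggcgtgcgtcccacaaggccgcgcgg

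The Rps25 stretch has 2 GC box matches and the other stretches 1 each. GC content of the 300-base promoter was 63.3% for Rps25, 50% for Rpl19 and 54.3% for Rpl35a, against 66.7% for Rpl15, 63.0% for Rpl31 and 52.7% for Rpl22l1.

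Member peaks covered the start site in a larger share of genes than did those of other genes. For members with a peak, the percentage of promoters covered was highest 24 to 64 bp upstream of the representative start site and reached 72.3% (BM5) to 92.1% (BM1). Other genes reached 56.7% (BM5) to 71.9% (BM1). At the start site itself the cover was 64.6% (BM5) to 92.1% (BM1) for members and 52.8% (BM5) to 70.04% (BM1) for others. Cover stayed above 50% of its maximum over 232 to 279 bp for members and 231 to 300 bp for others. The median width of the highest peak was 190.0 to 264.5 bp for members and 180.0 to 276.0 bp for all genes.

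**Figure D3:**
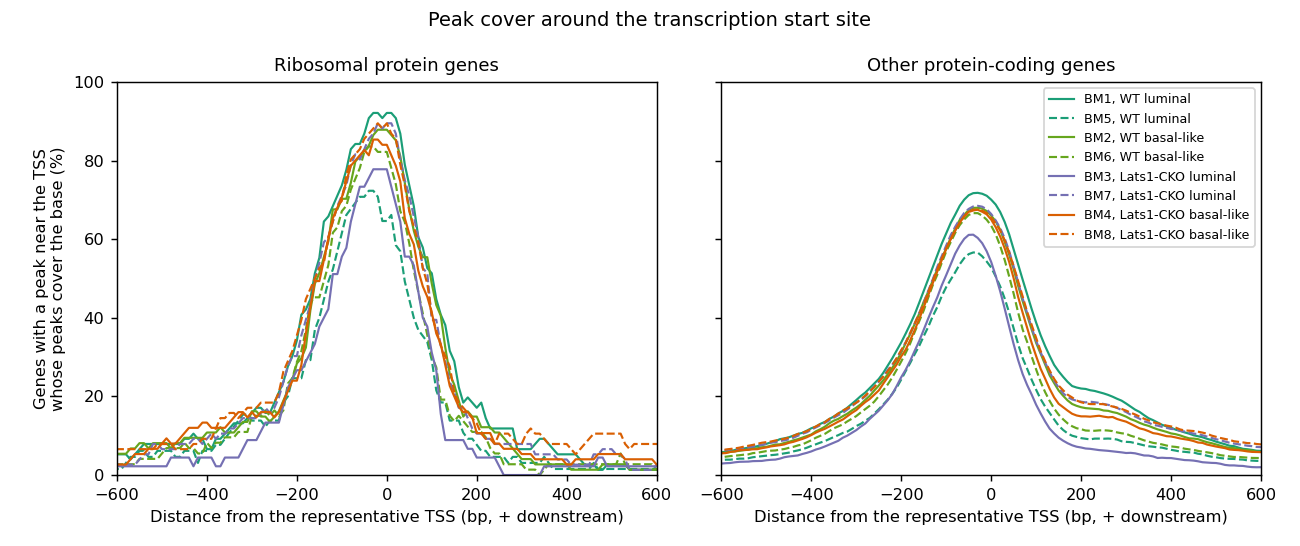
Percentage of genes whose peaks cover each base (y axis) against the distance from the representative TSS in bp (x axis, positive downstream), for members other than paralogs and Rps19bp1 (left) and other protein-coding genes (right), counting in each library the genes with a peak near a TSS. Lines are libraries, colored by group. The member curves peak higher (72.3 to 92.1%) than the others (56.7 to 71.9%), with BM5 and BM3 lowest in both panels.

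Among members with a peak in all libraries, the widest peaks belonged to Rps19 (mean 718 bp), Rps21 (463 bp) and Rpl37 (447 bp). The narrowest belonged to Rpl5 (112 bp), Rpl38 (175 bp) and Rps9 (183 bp). The median percentiles of the 3 widest were 88.0 (Rps19), 96.8 (Rps21) and 95.4 (Rpl37), and those of the 3 narrowest were lower, at 81.8 (Rpl5), 78.0 (Rpl38) and 79.9 (Rps9).

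The ETS core, the string bound by BANP and a TOP-like start were more frequent in member promoters than in all promoters. Windows of 250 bases before to 50 bases after the representative start site were searched on both strands for short letter strings in 77 members and in 21670 protein-coding genes. The ETS core CCGGAAG was in 27 member promoters (35.1%), against 11.3% of all promoters and 20.02% of the 7037 promoters of genes with a peak in all 8 libraries. It was in 37.2% of the mitochondrial list. The string TCTCGCGA, bound by BANP, was in 14 members (18.2%), against 1.38% of all promoters, 2.83% of promoters with a peak in all libraries and 2.56% of the mitochondrial list. A pyrimidine run of at least 6 bases that began within 5 bases of the start site on the gene's strand, as in TOP elements, was in 26 members (33.8%), against 13.2% of all genes and 12.8% of the mitochondrial list.

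Other strings were closer to the background. The GC box GGGCGG was in 51.9% of members and 45.8% of all promoters, but in 70.2% of promoters with a peak in all libraries. The YY1 string AAGATGGC was in 6.49% of members and 3.13% of all, the NRF1 string CGCATGCG in 2.60% and 2.34%, CCAAT in 29.9% and 38.3%, and TATAAA in 10.4% and 12.7%. Median GC content was 56.0% in members and in all promoters, while the median number of CpG dinucleotides was 21 against 12. That number was 22 in promoters with a peak in all libraries and 18 in the mitochondrial list, so it is not particular to the members. None of the strings contains another, though a pyrimidine run can overlap them. Matches are a description of the letters, not of binding.

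**Figure D4:**
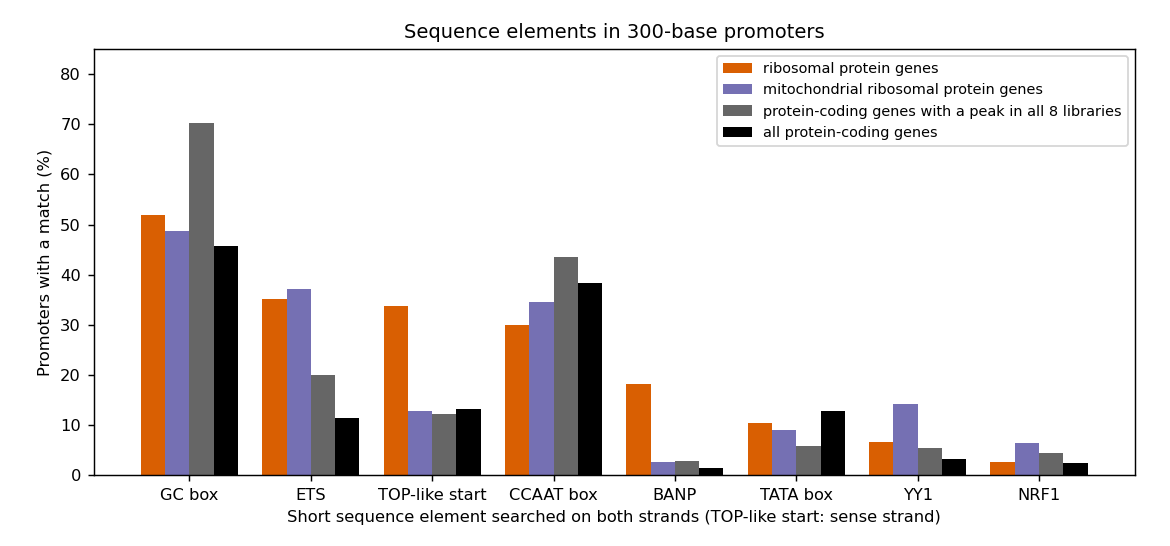
Percentage of 300-base promoters with a match (y axis, bars from 0) for each short sequence element (x axis), in ribosomal protein genes, mitochondrial ribosomal protein genes, protein-coding genes with a peak in all 8 libraries and all protein-coding genes. Ribosomal protein genes stand above the other lists for the TOP-like start (33.8%) and the BANP string (18.2%), while the ETS core is as frequent in the mitochondrial list (37.2%).

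The BANP string was looked at further after its share had been seen. BANP is a factor that opens chromatin at unmethylated CpG-rich promoters. In 12 of the 14 members the string began upstream of the start site, with a median position of -27.5 bases, and in 10 it lay within the last 100 bases. Peaks covered the string itself in at least 7 libraries for 8 members, and in all 8 for Rps3a1, Rps6, Rps15a and Rps19. For Rpl4 no peak covered it in any library. Members with and without the string had a peak in all libraries in 57.1% of 14 and 54.0% of 63 cases. Their median percentile, with 0 for a missing peak, had a median of 67.8 and 77.4. Among other protein-coding genes a peak in all libraries was found for 67.3% of the 284 with the string and 31.9% of the 21300 without it. Of the members whose string lies far enough upstream to be printed with 25 bases on either side, 4 are shown. Capitals mark the string and its overlapping reverse complement. Their smallest percentiles differed widely: 65.0 for Rps19, 34.1 for Rps15a, 8.20 for Rpl26 and 0 (no peak) for Rpl10a.

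Rps19 (chr7:24884125-24884182, plus strand): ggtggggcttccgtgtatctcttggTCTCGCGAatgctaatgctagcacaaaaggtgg

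Rps15a (chr7:118116181-118116238, minus strand): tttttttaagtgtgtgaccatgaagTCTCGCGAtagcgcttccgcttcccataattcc

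Rpl26 (chr11:68901515-68901572, plus strand): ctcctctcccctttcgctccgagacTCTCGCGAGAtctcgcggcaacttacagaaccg

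Rpl10a (chr17:28328509-28328566, plus strand): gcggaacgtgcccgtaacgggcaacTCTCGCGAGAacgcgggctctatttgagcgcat

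In Rpl26 and Rpl10a the string runs on into its reverse complement on the other strand, and in Rps19 and Rps15a it stands alone. The string begins 221 bases upstream in Rps19, 25 in Rps15a, 43 in Rpl26 and 34 in Rpl10a.

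To ask whether member promoters differed by genotype or population, percentiles (0 without a peak) of the 12232 genes with a peak in at least 4 libraries were compared, which left 80 of the 86 members. A gene was called when the 2 groups of 4 libraries did not overlap. The smallest p of the two-sided exact permutation test is then 0.0286, and after Benjamini-Hochberg adjustment over all genes the smallest was 1 in both comparisons. No gene passed at 0.05, and 163 genes for genotype and 136 for population had an unadjusted permutation p under 0.05. With 70 divisions this p cannot fall below 0.0286. A gene could therefore pass the adjustment only if a large part of all genes tested reached that p. The adjusted values cannot decide whether single genes differed.

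Between genotypes, 1 member was called higher in Lats1-CKO libraries (1.25% of members tested; background 0.474% of all genes tested) and 0 lower (background 0.858%). Rpl12, a large subunit protein at the base of the stalk, had WT percentiles of 47.7 in BM1, 43.2 in BM2, 0 in BM5 and 30.7 in BM6. Its Lats1-CKO percentiles were 59.7 in BM3, 59.9 in BM4, 53.2 in BM7 and 63.0 in BM8. All Lats1-CKO libraries lay above all WT libraries, by the narrowest gap of BM7 over BM1. The means were 30.4 ± 21.5 and 58.9 ± 4.12 (SD, n = 4 each), a difference of 28.5 percentile points (two-sided exact permutation test, p = 0.0286; adjusted p = 1). Lrsam1 has a start site within 1 kb of those of Rpl12, so the peak may belong to either gene. Without WT library BM5 the difference was 18.4, and with the rank among genes in place of peaks it was 21.4 (exact p = 0.0857).

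Without BM3 the count rose to 9 members (Rpl8, Rpl11, Rpl12, Rpl23a, Rpl30, Rpl31, Rpl35, Rpl36a and Rps4x), or 11.2% of members tested. The background rose to 11.5% of all genes, close to the members' share. Lower calls were 0 without BM3, against a background of 0.94%. Among the 9 the values differed widely in size: Rpl31 had 96.1 to 98.6 in WT libraries and 99.1 to 99.4 in BM4, BM7 and BM8, and Rps4x had 0 to 58.4 and 61.8 to 80.1.

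Between populations, 1 of 80 members was called higher in basal-like libraries (background 0.867%) and 1 lower (background 0.245%). The lower one was Rps15a, a small subunit protein. Its luminal percentiles were 67.4 in BM1, 57.3 in BM3, 65.6 in BM5 and 58.6 in BM7, and its basal-like ones 34.1 in BM2, 39.0 in BM4, 42.1 in BM6 and 55.5 in BM8. The groups were separated by the small gap between BM3 and BM8. The means were 62.2 ± 5.03 and 42.7 ± 9.14 (SD, n = 4 each), a difference of -19.6 (two-sided exact permutation test, p = 0.0286, adjusted p = 1). When only peaks that cover a start site were used, the difference was -3.16 (exact p = 0.914). Without BM3, 1 member was called higher in basal-like libraries (background 0.867%), and 3 were lower, Rpl22l1, Rps3a1 and Rps15a (3.75%; background 3.3%).

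**Figure D5:**
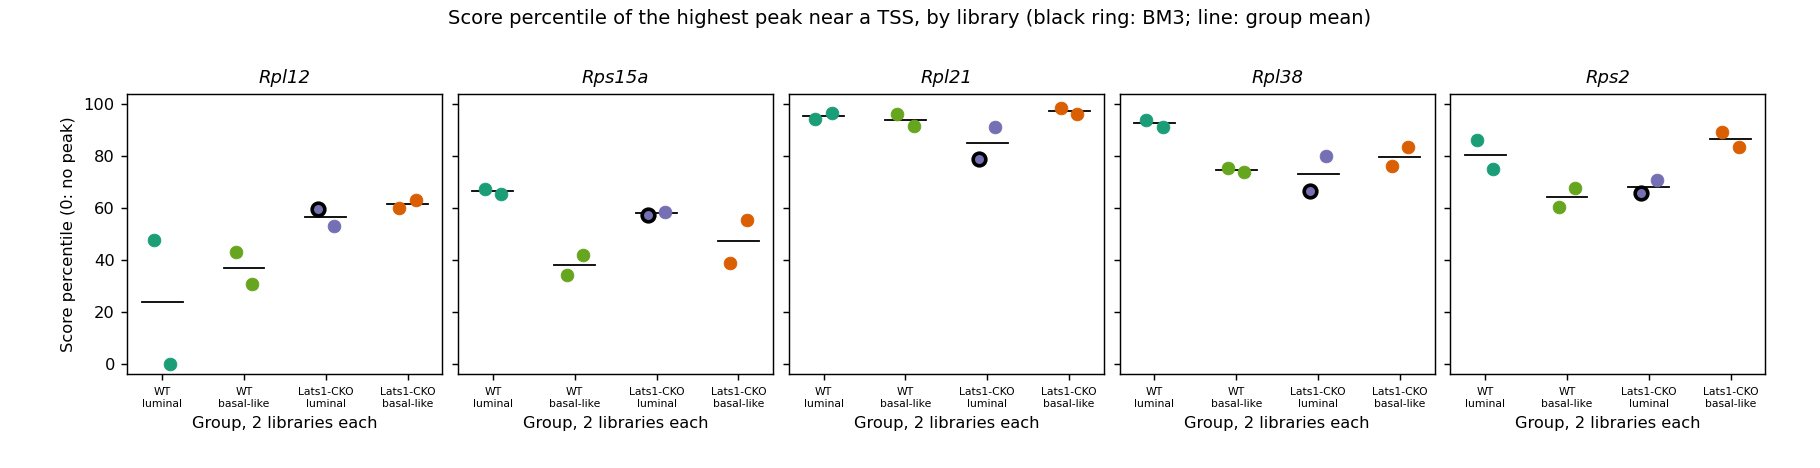
Score percentile (y axis, 0 where no peak was called) in each library for members whose libraries did not overlap between genotypes (Rpl12) or populations (Rps15a), and for 3 members whose genotype difference had opposite signs in the 2 populations (Rpl21, Rpl38, Rps2). Points are libraries, 2 per group, lines are group means and the black ring marks BM3. In Rpl12 the value of 0 is BM5.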

How the data were processed

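ATAC-seq was performed by the authors on PyMT-derived cells of 4 sorted groups, 2 libraries each. Per the labels and the methods, the authors removed adapters (cutadapt), kept reads with a unique alignment to mm10 (Bowtie 1.0.0) and removed duplicates (Picard 2.3.0). Peaks were called in each library separately with MACS2 (2.1.1.20160309 in the labels). Per the methods, peaks that overlap the ENCODE blacklist of mm10 were excluded. The authors deposited 1 peak list per library, each peak with a score, taken from its values to be that of MACS2 and not normalized between libraries. The lists hold peaks with a score of at least 13.

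Peaks were assigned to genes of GENCODE M21 by an overlap of at least 1 bp with a window of 1 kb on either side of any annotated TSS, and the highest score was ranked within its library. Libraries were compared over all 70 divisions into 4 and 4 (35 without BM3) by exact permutation tests with Benjamini-Hochberg adjustment, in python 3.11.15 with numpy 2.4.6, scipy 1.17.1, pysam 0.24.0 and matplotlib 3.10.9, after the procedure had been tested on simulated data. The representative start site was that of the principal transcript. Sequence came from the RefSeq copy of GRCm38.p6.

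The genes named were those lacking a peak in at least 2 libraries, the 5 highest and 5 lowest by their smallest percentile among those with a peak in all 8, those whose groups did not overlap, the 3 widest and 3 narrowest, a set of well-known members and the paralogs. Some of these genes are not reported here. Members and lists were chosen with earlier results of these data known. Alternatives were other distances, peak subsets, ranks, start sites, member lists and each library left out. The fold changes of the study could not be recomputed without read counts, and its RNA-seq data were not used here.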

Additional observations from a re-analysis of the deposited data

Results flagged for a closer look

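In 20 sets of 4 libraries of 1 genotype or population, 2 values stood farther from the other 3 libraries than Dixon's criterion allows. Chance flags about 1 in 20 such sets. The first is the share of members with a peak in BM3, 55.8% against 93.0% in each of the other 3 Lats1-CKO libraries. The second is the percentile of Rps15a in BM4, 39.0 against 55.5 to 58.6 in the other Lats1-CKO libraries. Over all members tested, BM3 was the outlying low library among the Lats1-CKO libraries for 24 members, more than any other library. The share of all genes with this flag is not given. BM3 also had the lowest share of all protein-coding genes with a peak (34.6%), so the count is no result about the members in particular.

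For 3 of the 80 members tested, both Lats1-CKO libraries lay below both WT libraries in the luminal population and above them in the basal-like one. The mean difference was -10.3 (luminal) and 3.55 (basal-like) percentile points for Rpl21, a large subunit protein, -19.4 and 5.13 for Rpl38, which is needed for translation of some Hox messenger RNAs, and -12.4 and 22.2 for Rps2, a small subunit protein. Without BM3, which leaves BM7 as the only Lats1-CKO luminal library, the luminal differences were -4.25 for Rpl21, -12.7 for Rpl38 and -9.88 for Rps2. The difference between populations was not tested. The same pattern, in either order of the populations, occurred in 385 of 12232 genes (3.15%).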

How the results depend on the processing

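With each library left out in turn, the mean share of members with a peak (85.9%) ran from 84.9 to 90.2%, its Lats1-CKO minus WT difference from -7.46 to 4.94 points and its basal-like minus luminal difference from 3.20 to 15.6. The mean of the median percentile (78.6) ran from 77.7 to 79.6, and its differences from 0.306 to 4.85 for genotype and -2.09 to 2.45 for population. The counts of members whose groups did not overlap of 80 ran from 1 to 9 (Lats1-CKO above WT; background 0.605 to 11.5%), 0 to 1 (below; 0.94 to 2.74%), 1 to 2 (basal-like above luminal; 0.867 to 4.76%) and 1 to 3 (below; 0.27 to 3.3%). Among these, the positive genotype difference in share and the count of 9 came from leaving out BM3. With all libraries that difference was also positive with the 10000 highest-scoring peaks (3.20) and with peaks above the median score (1.74).

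With the 10000 highest-scoring peaks, the mean share was 34.4%, the population difference -6.69 points and the mean median percentile 62.6. With BM3 also left out, a setting added after the data were seen, they were 32.9%, -4.17 and 61.5, and 2 of 31 members tested (Rpl22l1 and Rpsa) were lower in Lats1-CKO (background 3.65%). With peaks above the median score the mean median was 64.3. Without members that share a promoter, 0 members were called higher in Lats1-CKO (background 0.474%). A distance of 5 kb gave 1 lower call (Rpl4; background 0.774%) and the rank among genes 2 of 80 (Rpl22l1 and Rps23; background 2.1%). The basal-like above luminal count fell to 0 with 5 kb, with peaks that cover a start site, with either set of higher-scoring peaks and with the 10000 peaks without BM3 (background 0.502 to 1%). The below count fell to 0 with peaks that cover a start site (background 0.204%) and with the 10000 peaks (2.26%). The rank among genes without BM3, also added later, gave a mean median of 70.7 and counts of 6 and 4 (Lats1-CKO above and below WT; background 4.39 and 4.27%) and of 3 and 2 (basal-like above and below luminal; background 2.49 and 2.54%). The causes were not tested beyond what each construction changes.

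Over the settings, the calls of named members lost p under 0.05 in 27 pairs of gene and setting and kept it in 26, and none changed sign. Of the summary values, 142 stayed within the spread or 1.5 times the count, and 32 moved beyond it. The spread is the pooled SD within groups, which includes BM3, and a change of sign can lie within it. The genotype difference in share, -4.36 with all libraries and 4.94 without BM3, is counted as staying. The tally is therefore no measure of how firm the differences are. The absence of a peak depends on depth, which is unknown, as well as on accessibility. It can also depend on unique alignment of reads and on the removal of blacklisted peaks, which were not examined. No paired analysis was possible because the labels give no replicate numbers shared between groups.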
